A study of Mus musculus with 18 samples.

Results

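The change of gene expression between late embryonic life (embryonic day E18.5) and the young postnatal stage (postnatal day P15) was measured in the vestibular organ of mice that lack Igf1. The comparison sets 3 P15 arrays of Igf1 -/- mice against 3 E18.5 arrays of Igf1 -/- mice, 6 of the 18 arrays of the series. All 6 were chosen by the age and genotype in their titles and by no measured value. The other arrays are P90 Igf1 -/- and P15, E18.5 and P90 Igf1 +/+ (wild type), 3 in each group. The labels of the P15 and P90 wild-type samples disagree: their title, source name and genotype say +/+, which was followed, while their description says -/-, and all wild-type changes and genotype differences given here rest on the P15 ones. All mice were on a hybrid Mf1 and 129/sv background, were perfused with paraformaldehyde, and gave total RNA that was read on Affymetrix Mouse Gene 1.1 ST arrays, which cover each gene with several short probes. The genotype label of the null is Igf1 -/-, with no Cre or transgene named. Each array is labelled a biological replicate, without a statement of how many animals it holds, so p-values measure the spread between arrays.

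The vestibular organ is the balance part of the inner ear. Hair cells in its sensory patches carry stereocilia that are deflected by crystals called otoconia and by gelatinous membranes, dark cells keep the surrounding endolymph rich in potassium, and the whole organ is enclosed by cartilage that is replaced by bone around birth. Insulin-like growth factor 1, the peptide made from Igf1, acts on the receptor Igf1r and drives growth after birth, while the related ligand Igf2 acts mainly before birth. The dissected tissue also contained neurons, muscle, cartilage, bone and blood cells, and in such bulk RNA fewer cells of a type and less RNA per cell cannot be told apart.

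Values are log units of unstated base, so that 1 unit stands for 2.72-fold in natural logs or for 2-fold in log2. Changes are P15 minus E18.5, each with its standard error (SE) from limma, and a gene is called when its Benjamini-Hochberg adjusted p over all 19938 genes is below 0.05. The main axis of variation (63.6% of the variance) was age, and along it the Igf1 -/- arrays scored 19 to 29.7 at P15 and -62.9 to -52.3 at E18.5. E18.5 Igf1 -/- arrays 2 and 3 stood apart from the rest of their age on the third principal component (5.5% of the variance). Their scores were 16.3 and 18.8, against -9.4 in array 1. Some of the counts below are also given without array 2 or without both. Counts printed without such a repeat can shift too. Without array 2, hair cell genes gave 7 rises and 13 falls, vestibular ganglion genes 10 and 2, and skeletal muscle genes 5 and 23. Signal of both Xist and Y-linked genes was high in all 3 E18.5 Igf1 -/- arrays and in P15 Igf1 -/- array 1, whereas P15 array 2 had little Y-linked signal (3.29, mean of 3 genes) and P15 array 3 little Xist (4.09).

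Igf1 itself, on chromosome 10, was measured first. Its values were 5.54, 5.69 and 5.42 in P15 Igf1 -/- arrays and 6.40, 6.88 and 6.51 in E18.5 Igf1 -/- arrays, so every P15 array was below every E18.5 array. The fall was 1.05 ± 0.12 (SE, adjusted p = 3.39e-06), and in wild-type arrays Igf1 changed by -1.07 ± 0.12. The means were 5.55 ± 0.13 in P15 Igf1 -/- and 5.96 ± 0.13 in P15 Igf1 +/+ arrays, and 6.59 ± 0.25 in E18.5 Igf1 -/- and 7.03 ± 0.04 in E18.5 Igf1 +/+ arrays (SD, n = 3 each). The part of the gene that was deleted is not given in the labels, so a probe set that keeps signal in the null does not check the genotype.

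A large part of the transcriptome differed between the 2 ages. The part that the tissues held in each dissection had in this was not tested. Of the 19938 genes, 8128 (40.8%) were called between P15 and E18.5 Igf1 -/- arrays, 4038 (20.3%) of them higher at P15 and 4090 (20.5%) lower. At least 1 log unit was reached by 1235 of the higher genes (6.19% of all genes) and 585 of the lower ones (2.93%). Without E18.5 Igf1 -/- arrays 2 and 3 the counts were 2752 higher and 2643 lower. The split depends on the scaling: with the values as deposited, where the P15 arrays lie higher as a whole (median change 0.25 over all genes), 5551 genes were higher and 973 lower, so changes are given relative to quantile-normalised arrays. The wild-type arrays of the same 2 ages, which share no array with the null ones, gave 41.5% of genes called, 3923 higher (19.7%) and 4360 lower (21.9%). In both genotypes 6195 genes were called in the same direction and 19 in opposite directions. The genes higher in both made up 78.5% of those higher in Igf1 -/- and 80.8% of those higher in Igf1 +/+, and the genes lower in both made up 73.9% of those lower in Igf1 -/- and 69.4% of those lower in Igf1 +/+.

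**Figure D1:**
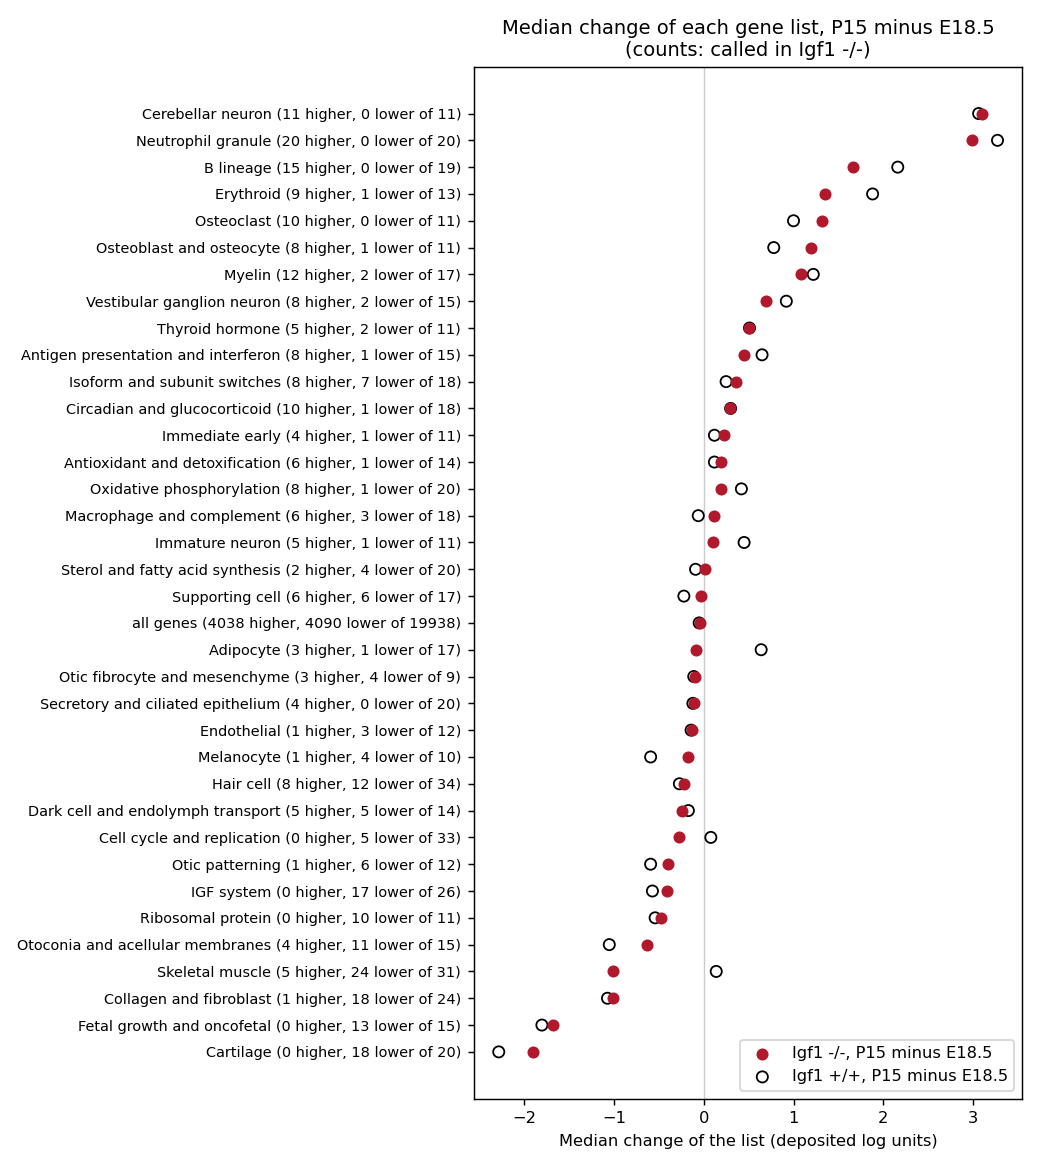
Median change of each gene list from E18.5 to P15, in deposited log units on the horizontal axis, in Igf1 -/- arrays (filled) and Igf1 +/+ arrays (open), with the number of genes called in Igf1 -/- beside each list name. The cerebellar neuron and neutrophil lists lie highest, at 3.10 and 2.99 in Igf1 -/-, the cartilage list lowest, at -1.90, and the skeletal muscle list has its filled point at -1.01 and its open point at 0.14.

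Genes for the structures that sit on the sensory patches mostly fell. Of 15 measured genes for otoconia and acellular membranes, 11 fell and 4 rose in Igf1 -/- tissue (median -0.63, against -0.04 over all genes). Oc90, which encodes the main matrix protein of otoconia, had values of 4.11, 4.43 and 4.53 in P15 Igf1 -/- arrays and 8.51, 8.33 and 8.56 in E18.5 Igf1 -/- arrays. The 2 ages did not overlap, and the fall of 4.11 ± 0.21 (adjusted p = 1.72e-09) was among the 15 largest of all genes, next to a wild-type change of -4.03. Zpld1, which encodes a zona pellucida domain protein of the cupula, had values of 3.86, 4.05 and 4.06 at P15 and 6.34, 6.24 and 6.43 at E18.5, a fall of 2.34 ± 0.12. Tecta and Tectb, the tectorins of the gelatinous membranes, fell by 1.87 ± 0.18 and 1.78 ± 0.15. The 4 genes that rose were Sparcl1 (0.69 ± 0.07), which encodes a matrix glycoprotein found in otoconia, Pkhd1l1 (1.43 ± 0.22), a stereocilia coat protein, Ceacam16 (0.79 ± 0.18), a tectorial membrane protein, and Nox3 (0.45 ± 0.16), the oxidase subunit needed to form otoconia. Without E18.5 array 2 the counts were 3 rises and 11 falls, and without arrays 2 and 3 they were 3 and 9.

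Hair cell genes moved in both directions. Of 34 measured, 8 rose (23.5%, against 20.3% of all genes) and 12 fell (35.3%, against 20.5%), with a median of -0.22. Pou4f3, a transcription factor needed for hair cells to mature, had values of 1.81, 2.46 and 2.92 at P15 and 3.69, 3.16 and 3.49 at E18.5, a fall of 1.05 ± 0.26 (adjusted p = 0.00411). Ush1c (harmonin, at the tip links) fell by 0.89 ± 0.13, Cdh23 (a tip-link cadherin) by 0.67 ± 0.14, Myo7a (the motor that tensions the link) by 0.50 ± 0.11, Otof (otoferlin, the calcium sensor of the synapse) by 0.69 ± 0.14 and Slc17a8 (the glutamate transporter Vglut3) by 0.66 ± 0.10. Chrna9 and Chrna10, the subunits of the acetylcholine receptor at efferent synapses on hair cells, fell by 1.05 ± 0.17 and 0.69 ± 0.17. The stereocilia genes Loxhd1 and Myo15, the calcium buffer gene Ocm (oncomodulin) and the transcription factor gene Lhx3 fell by 0.52 ± 0.11, 0.49 ± 0.10, 0.54 ± 0.14 and 0.34 ± 0.13.

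Tmc1 and Tmie, parts of the mechanotransduction channel complex, rose by 0.76 ± 0.21 and 0.85 ± 0.12. Tmc1 had values of 3.91, 3.94 and 3.77 in P15 Igf1 -/- arrays and 3.44, 2.65 and 3.24 in E18.5 Igf1 -/- arrays. Tmc2, a related channel gene of hair cells, had values of 3.15, 3.01 and 2.87 at P15 and 3.41, 2.89 and 3.05 at E18.5. The ages overlapped (-0.11 ± 0.15, limma adjusted p = 0.604). The largest rises of the list were Calb2 (4.04 ± 0.25), Calb1 (3.95 ± 0.15), Atp2b2 (2.31 ± 0.15) and Pvalb (2.23 ± 0.12), calcium buffers and a calcium pump that cerebellar neurons also express at high levels. They rose beside the cerebellar markers described below, whose part in them was not tested. The remaining rises were Barhl1 (1.03 ± 0.17), a transcription factor of hair cells and cerebellar granule cells, and Cacna1d (0.82 ± 0.13), the calcium channel of the ribbon synapse. The other members were not called: the transcription factors Atoh1 (-0.41 ± 0.26) and Gfi1 (0.25 ± 0.14), the transduction and tip-link genes Pcdh15 (-0.13 ± 0.12), Lhfpl5 (-0.23 ± 0.15) and Ush1g (-0.06 ± 0.14), and the outer hair cell motor Slc26a5 (-0.13 ± 0.14). Nor were the stereocilia genes Espn (-0.14 ± 0.14), Espnl (-0.48 ± 0.19), Strc (-0.20 ± 0.13), Triobp (-0.11 ± 0.09), Xirp2 (-0.42 ± 0.19), Ptprq (0.09 ± 0.16) and Myo3a (-0.27 ± 0.36).

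Of 17 supporting cell genes 6 rose and 6 fell (35.3% each, against 20.3% and 20.5% of all genes), with a median of -0.03. Fgfr3 had values of 5.45, 5.31 and 5.49 at P15 and 6.97, 6.84 and 7.08 at E18.5, and this growth factor receptor, also a cartilage gene, fell by 1.55 ± 0.10. The Notch ligand Jag1 fell by 0.79 ± 0.11 and its receptor Notch1 by 0.60 ± 0.10, whereas Hey1, a Notch target, rose by 0.94 ± 0.07. Gjb6, the connexin that couples supporting cells, rose by 0.76 ± 0.10. Among 14 genes of dark cells and endolymph transport 5 rose and 5 fell, and 4 and 3 without E18.5 arrays 2 and 3. With all arrays, rises and falls each made up 35.7% of the 14. Of the 6 potassium secretion genes among them 3 rose and 1 fell (median 0.11). The water channel Aqp4 had values of 6.22, 6.54 and 6.49 at P15 and 4.08, 4.55 and 3.36 at E18.5, a rise of 2.42 ± 0.21. The part of glial cells in the rise of Aqp4 was not tested. The carbonic anhydrase Car2 rose by 1.27 ± 0.17, while Car12 fell by 1.22 ± 0.22 and the proton pump subunit Atp6v1b1 by 0.95 ± 0.11.

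Of 9 measured genes of the fibrocytes and mesenchyme around the labyrinth 3 rose (33.3%) and 4 fell (44.4%), against 20.3% and 20.5% of all genes. Otos (otospiralin, a fibrocyte protein) had values of 5.14, 5.19 and 5.15 at P15 and 3.83, 3.54 and 3.70 at E18.5, a rise of 1.47 ± 0.11. Coch (cochlin, a major extracellular protein of the inner ear) rose by 0.64 ± 0.09. Otor (otoraplin), Epyc (epiphycan) and the mesenchymal transcription factors Tbx18 and Pou3f4 fell by 1.48 ± 0.17, 2.55 ± 0.23, 1.33 ± 0.15 and 1.32 ± 0.18. Of 12 otic patterning transcription factors 6 fell, among them Eya1 (1.31 ± 0.11), Hmx3 (1.45 ± 0.17) and Hmx2 (0.86 ± 0.15), and 1 rose, Otx2 (1.97 ± 0.16).

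Cartilage genes fell and bone genes rose. Of 20 measured cartilage genes 18 fell and none rose (median -1.90, against -2.28 in wild type), and 17 fell without E18.5 arrays 2 and 3. Matn1 (matrilin 1) had the largest fall of all genes, with values of 2.05, 3.08 and 3.70 in P15 Igf1 -/- arrays and 8.72, 8.44 and 8.54 in E18.5 Igf1 -/- arrays, a change of -5.62 ± 0.37 (adjusted p = 1.48e-08). Acan (aggrecan, the main cartilage proteoglycan) had values of 4.44, 4.94 and 5.14 at P15 and 8.08, 7.95 and 8.07 at E18.5, a change of -3.19 ± 0.15. Sox9, the master regulator of chondrocytes, had values of 5.30, 5.27 and 5.29 at P15 and 7.13, 7.10 and 7.26 at E18.5, and its fall of 1.88 ± 0.06 had an adjusted p of 3.74e-11. No P15 value of these 3 genes reached an E18.5 value. Matn3, Hapln1 (which links aggrecan to hyaluronan) and Col9a2 fell by 3.14 ± 0.18, 2.76 ± 0.18 and 1.92 ± 0.10. Papss2, which supplies sulphate for proteoglycans, and Snorc, a chondrocyte proteoglycan, were among the 10 falls with the smallest p (2.22 ± 0.10 and 2.52 ± 0.11). Col10a1, the collagen of hypertrophic chondrocytes, was not called (-0.21 ± 0.40), with values of 4.24, 5.87 and 5.96 at P15 and 5.03, 6.40 and 5.27 at E18.5, and its wild-type change was -2.20, without a called difference between genotypes.

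Of 11 measured osteoblast and osteocyte genes 8 rose and 1 fell (median 1.20, and 0.78 in wild type). The largest rises were those of osteocyte genes, of which 4 of 6 rose and 1 fell (lowest change -0.55). Of 5 osteoblast genes 4 rose and none fell. Mepe, a phosphoglycoprotein of osteocytes, had values of 6.20, 6.29 and 6.18 at P15 and 1.43, 2.01 and 1.94 at E18.5, a rise of 4.43 ± 0.35 (adjusted p = 1.12e-07). Dmp1, which organises mineral deposition, had values of 7.50, 8.12 and 7.99 at P15 and 3.93, 3.90 and 4.29 at E18.5, a rise of 3.83 ± 0.20. Phex, a phosphate-regulating peptidase, rose by 2.97 ± 0.15 and Ibsp (bone sialoprotein) by 2.87 ± 0.24. The same 4 genes changed by 3.98, 2.47, 2.01 and 1.51 in wild type, each less than in Igf1 -/-, but no gene of the list passed the test of the difference between genotypes. Of 11 osteoclast genes 10 rose and none fell (median 1.32). Among them were Ctsk (cathepsin K, which digests bone collagen) at 2.20 ± 0.22 and Acp5 (the tartrate-resistant phosphatase) at 2.40 ± 0.21. Of 24 genes for collagens and their assembly in fibroblasts 18 fell and 1 rose (median -1.01). The fallen ones include Fbn2 (a fetal fibrillin, 1.99 ± 0.12), Col14a1 (1.97 ± 0.09), Col6a3 (1.66 ± 0.10) and Col6a1 (1.19 ± 0.10), and the gene that rose was Col1a1 (0.50 ± 0.15), the main bone collagen.

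**Figure D2:**
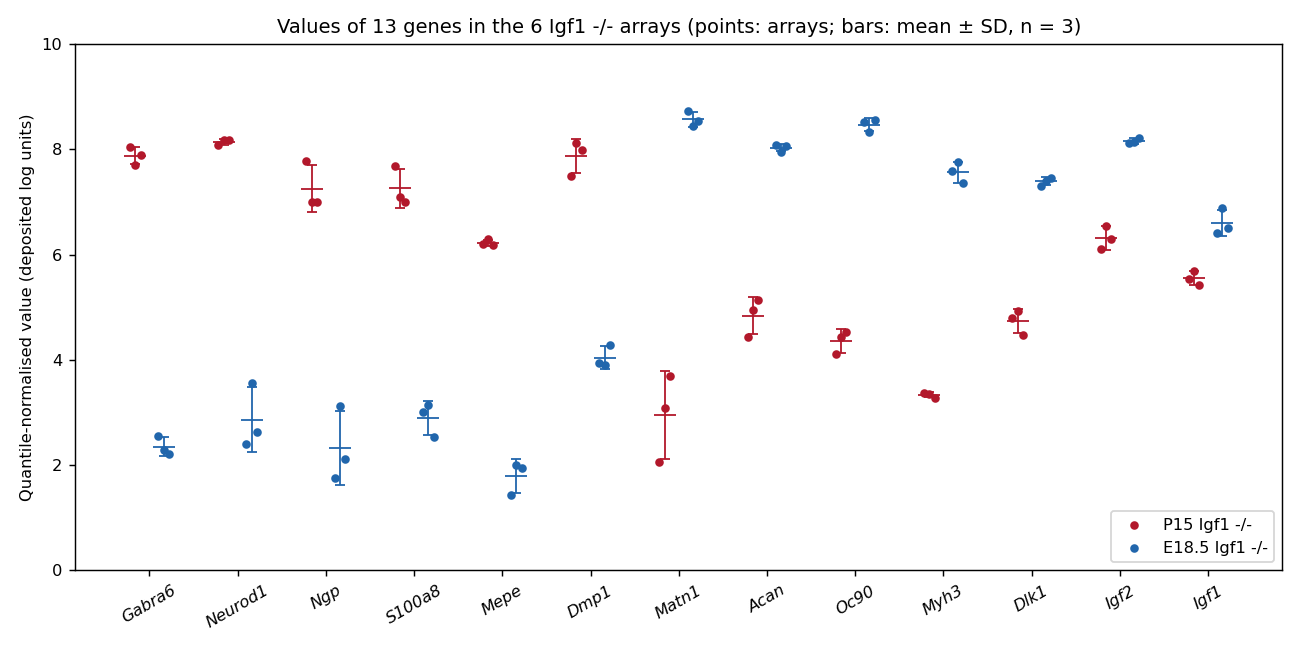
Quantile-normalised values in deposited log units of 13 named genes in the 3 P15 Igf1 -/- arrays (left of each pair) and the 3 E18.5 Igf1 -/- arrays (right), with the mean and SD. The arrays of the 2 ages do not overlap for any of the 13 genes, from Gabra6 (8.04, 7.71 and 7.89 at P15 against 2.55, 2.29 and 2.21 at E18.5) to Igf1.

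Fetal growth genes fell. Of 15 measured, 13 fell and none rose (median -1.68), 11 of them also without E18.5 arrays 2 and 3. All 9 measured imprinted growth genes, which are expressed from 1 parental allele, fell in Igf1 -/- tissue and also in wild type. Igf2, the fetal growth factor, had values of 6.11, 6.55 and 6.29 at P15 and 8.12, 8.13 and 8.22 at E18.5, a fall of 1.84 ± 0.10 (adjusted p = 3.04e-09). Dlk1, a membrane protein of fetal precursor cells, had values of 4.80, 4.93 and 4.48 at P15 and 7.31, 7.40 and 7.46 at E18.5, a fall of 2.65 ± 0.24. Peg10 fell by 2.45 ± 0.09, Plagl1 by 2.23 ± 0.13, Cdkn1c (a brake on the cell cycle) by 2.18 ± 0.11, Mest by 1.97 ± 0.12, Grb10 (an adaptor that dampens insulin and IGF receptors) by 1.68 ± 0.09, Peg3 by 1.50 ± 0.10 and the noncoding RNA Meg3 by 0.58 ± 0.16. The oncofetal RNA-binding genes Igf2bp1 and Igf2bp3, whose proteins bind Igf2 mRNA, fell by 2.35 ± 0.14 and 1.42 ± 0.14, and Hmga2 by 0.85 ± 0.17 and Trim71 by 0.72 ± 0.15. Lin28a (0.40 ± 0.25) and Lin28b (-0.06 ± 0.17) were not called.

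Other genes of fetal tissues stood among the 15 largest falls without being on this list. Zim1, an imprinted zinc finger gene, had values of 4.57, 4.83 and 4.92 at P15 and 8.27, 8.08 and 8.26 at E18.5, a fall of 3.43 ± 0.16. Agtr2, the fetal receptor for angiotensin II, had values of 3.96, 4.12 and 4.13 at P15 and 7.04, 7.05 and 7.07 at E18.5, a fall of 2.99 ± 0.11. The 3 E18.5 arrays were almost equal for Agtr2, and no P15 array came near them. Rtl3, a gene derived from a retrotransposon, the kinase gene Nrk and Capn6, a calpain without protease activity, fell by 3.49 ± 0.11, 3.38 ± 0.13 and 2.89 ± 0.18. C1qtnf3, a secreted C1q-like protein made by cartilage, fell by 3.67 ± 0.12.

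Mir323, a microRNA (miRNA) gene on chromosome 12, was also among the 15 largest falls, with values of 3.42, 3.29 and 4.03 at P15 and 6.38, 6.29 and 6.32 at E18.5 (-2.75 ± 0.30, adjusted p = 2.88e-06). It lies in the imprinted domain between Dlk1 and Dio3, where a long row of miRNA genes is transcribed from the maternal chromosome together with Meg3. After this value was seen, all miRNA genes that RefSeq (GRCm38.p6) places between Dlk1 and Dio3 were examined as 1 set. Of 58 there, 39 were measured, and 38 of the 39 fell and none rose (97.4% lower, median -1.40). Over the other 220 measured miRNA genes 58 fell (26.4%) and 30 rose (median -0.17). The 39 changes ran from -2.75 to -0.52, the wild-type median was -1.39, and no gene of the row passed the test of the difference between genotypes. The gene that was not called was Mir376a, with values of 3.04, 2.71 and 2.97 at P15 and 3.71, 3.68 and 2.89 at E18.5. Rian, a noncoding RNA of the same domain, had values of 5.92, 5.76 and 5.91 at P15 and 7.26, 7.45 and 7.29 at E18.5, a fall of 1.47 ± 0.16. The probe sets lie on the miRNA genes by the array's annotation, and they do not tell a primary transcript from a processed miRNA. Neighbouring miRNA genes may come from 1 transcript, so they are not independent of each other.

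The mature miRNAs of this row mostly differ in their seeds. The 74 mature sequences that RefSeq lists for the 39 genes have 72 different seeds, the bases 2 to 8 that pair with target messages, and 2 seeds are shared by a pair of genes. Both arms of miR-323, the gene that fell most, and the 2 pairs with a shared seed are shown 5′ to 3′ with the seed in capitals.
miR-323-3p: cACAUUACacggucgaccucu
miR-323-5p: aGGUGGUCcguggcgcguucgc
miR-379-3p: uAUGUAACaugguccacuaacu
miR-411-3p: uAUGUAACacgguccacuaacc
miR-376b-5p: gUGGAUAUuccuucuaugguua
miR-376c-5p: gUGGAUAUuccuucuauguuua

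Mir379 and Mir411, which share the seed AUGUAAC, had values of 3.23, 2.82 and 3.21 and of 2.95, 2.64 and 3.44 in P15 Igf1 -/- arrays. In E18.5 Igf1 -/- arrays they had 5.14, 4.65 and 4.17 and 4.94, 4.29 and 4.04. Both fell, by 1.57 ± 0.37 and 1.41 ± 0.44. Mir376c and Mir376b, the other pair, fell by 1.71 ± 0.28 and 0.67 ± 0.20.

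**Figure D3:**
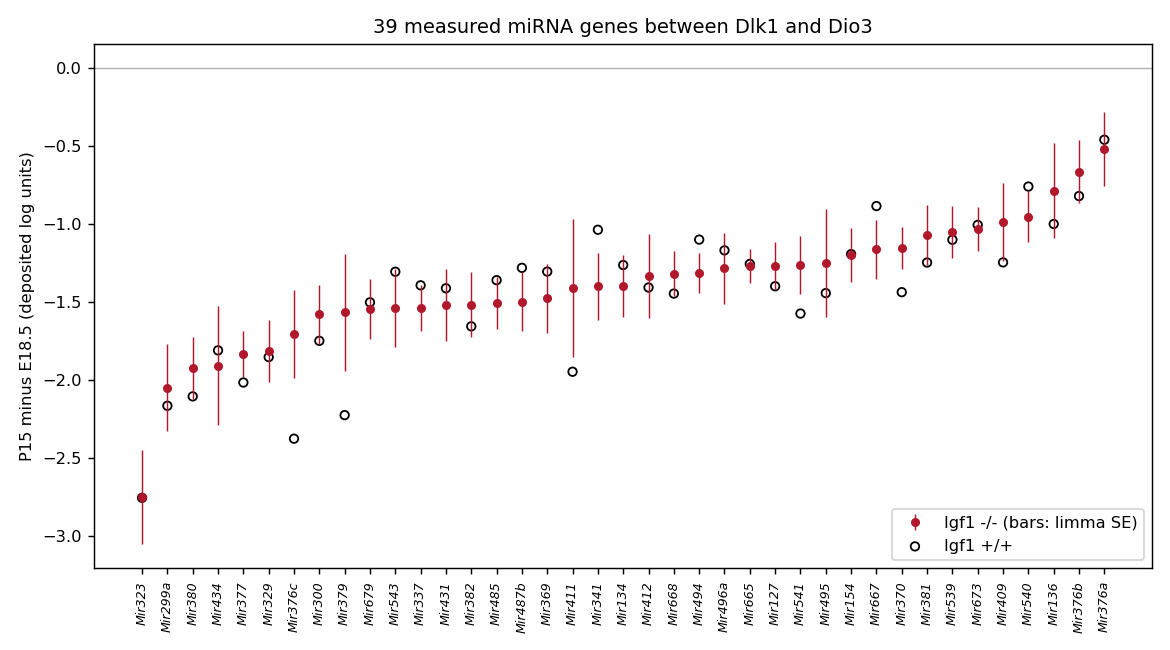
Change from E18.5 to P15, in deposited log units, of the 39 measured miRNA genes between Dlk1 and Dio3, ordered by their change in Igf1 -/- arrays (filled, with the SE of the fit), with the change in Igf1 +/+ arrays (open). All 39 filled points lie below 0, from -2.75 for Mir323 to -0.52 for Mir376a.

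Outside this row, several miRNA genes known from a tissue were picked after their values were seen, and they stand for no general pattern of such genes. Mir140, a miRNA of cartilage, had values of 2.72, 3.21 and 2.97 at P15 and 5.89, 5.09 and 5.84 at E18.5, a fall of 2.64 ± 0.31. Mir206, a muscle miRNA, fell by 1.06 ± 0.21. Mir384, a neuronal miRNA, had the largest rise of the miRNA genes, with values of 5.04, 4.62 and 4.87 at P15 and 0.91, 1.80 and 0.81 at E18.5 (3.67 ± 0.23). Other miRNA genes known from neurons went both ways. Mir488, Mir9-1, Mir128-2, Mir9-3 and Mir138-2 rose, by 1.79 ± 0.25, 1.53 ± 0.16, 0.92 ± 0.17, 0.71 ± 0.17 and 0.67 ± 0.16. Mir153 and Mir138-1 fell by 0.45 ± 0.15 and 0.48 ± 0.17. Mir128-1 (0.46 ± 0.18), Mir132 (0.00 ± 0.30) and Mir137 (0.08 ± 0.17) were not called. Mir142, a miRNA of blood cells, rose by 1.45 ± 0.24. Of the erythroid genes Mir144 and Mir451a, Mir144 rose by 1.53 ± 0.41 and Mir451a was not called (0.58 ± 0.23). Mir181a-1 and Mir181b-1, neighbours on chromosome 1 that are known from lymphocytes and neurons and share the seed ACAUUCA, rose by 2.38 ± 0.48 and 1.45 ± 0.17. The other genes of that family went another way: Mir181b-2 and Mir181d fell by 0.82 ± 0.14 and 0.52 ± 0.19, and Mir181a-2 (-0.03 ± 0.14) and Mir181c (0.17 ± 0.12) were not called. For Mir140, Mir206, Mir384, Mir142, Mir181a-1 and Mir181b-1, 1 mature arm each is shown in the same way.
miR-140-3p: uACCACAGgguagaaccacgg
miR-206-3p: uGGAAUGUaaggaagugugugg
miR-384-5p: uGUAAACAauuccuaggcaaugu
miR-142a-3p: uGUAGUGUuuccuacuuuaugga
miR-181a-5p: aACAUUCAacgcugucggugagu
miR-181b-5p: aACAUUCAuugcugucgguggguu

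Components of the IGF system fell with the ligands. Of 26 genes 17 fell and none rose (median -0.41), 12 of them also without E18.5 arrays 2 and 3, and the wild-type arrays gave 19 falls and 1 rise. Among receptors and adaptors, Igf1r had values of 6.32, 6.19 and 6.32 at P15 and 6.73, 6.54 and 6.77 at E18.5, a fall of 0.40 ± 0.08 (adjusted p = 0.00052). Igf2r, which removes Igf2 from the cell surface, had values of 6.28, 6.37 and 6.34 at P15 and 7.54, 7.46 and 7.49 at E18.5, a fall of 1.17 ± 0.07. The adaptor Irs1 fell by 0.81 ± 0.09, and the insulin receptor Insr (-0.08 ± 0.08), Irs2 (0.14 ± 0.10) and Irs4 (-0.06 ± 0.21) were not called. Of the secreted binding proteins, Igfbp2 fell by 1.60 ± 0.16, Igfbp3 by 1.08 ± 0.11, Igfbp5 by 0.71 ± 0.10, Igfbp4 by 0.62 ± 0.12, Igfbp7 by 0.35 ± 0.11 and Igfals, which stabilises circulating complexes, by 0.33 ± 0.11. Igfbp1 (0.14 ± 0.15) and Igfbp6 (0.04 ± 0.07) were not called. The protease Pappa2, which frees IGFs from their binding proteins, fell by 1.51 ± 0.16, the inhibitors Stc1 and Stc2 by 0.66 ± 0.19 and 0.54 ± 0.10, and the protease Htra1 by 0.24 ± 0.09, while Pappa was not called (0.32 ± 0.13). In the growth hormone axis, which controls Igf1 in many tissues, the receptor Ghr fell by 0.97 ± 0.13 and the target Socs2 by 0.42 ± 0.08, and Jak2 (-0.10 ± 0.07), Stat5a (0.06 ± 0.10) and Stat5b (0.15 ± 0.07) were not called.

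Cerebellar genes had the highest median change of the 35 lists. All 11 measured genes of cerebellar granule and Purkinje cells rose, by 0.87 to 5.53 (median 3.10, and 3.06 in wild type), and all 11 rose without E18.5 arrays 2 and 3. Gabra6, the GABA receptor subunit of granule cells, had the largest rise and the smallest p of all genes, with values of 8.04, 7.71 and 7.89 at P15 and 2.55, 2.29 and 2.21 at E18.5 (5.53 ± 0.15, adjusted p = 8.73e-12). Neurod1, a neuronal transcription factor, had values of 8.08, 8.17 and 8.18 at P15 and 2.40, 3.56 and 2.62 at E18.5, a rise of 5.29 ± 0.26. It is also known from vestibular ganglion neurons. Outside the list, Ppp1r17, a Purkinje cell phosphatase inhibitor, rose by 4.34 ± 0.16. The cerebellins Cbln3 and Cbln1, which organise granule cell synapses, rose by 4.06 ± 0.21 and 3.84 ± 0.20. En2, a transcription factor of the midbrain and hindbrain, had values of 6.63, 6.64 and 6.60 at P15 and 2.53, 2.18 and 2.40 at E18.5, a rise of 4.25 ± 0.14. Zbtb18, a repressor in neurons, and Gpr37l1, a receptor of glia, were among the 10 rises with the smallest p (2.21 ± 0.09 and 2.91 ± 0.12).

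The label names the vestibular organ, so the defining genes of vestibular neurons were read beside the cerebellar ones. Of 15 vestibular ganglion genes 8 rose and 2 fell (median 0.69). The largest rise was that of Neurod1, which the cerebellar list also holds. Others that rose serve in neurons generally, such as Snap25 (2.81 ± 0.23), which drives vesicle fusion, the sodium channel Scn1a (2.08 ± 0.20) and the potassium channel Kcna2 (1.36 ± 0.12). The 2 that fell, Isl1 (1.05 ± 0.20) and Gata3 (0.89 ± 0.19), are, like Neurod1, transcription factors of inner ear neurons. Pou4f1, another such factor, had values of 3.01, 3.00 and 2.46 at P15 and 2.88, 3.12 and 2.09 at E18.5, and was not called (0.12 ± 0.28). The mean level of the cerebellar list was 7.09 to 7.32 in P15 Igf1 -/- arrays and 3.83 to 4.11 in E18.5 Igf1 -/- arrays. Its part in the rise of general neuronal genes was not tested.

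Of 17 myelin genes 12 rose and 2 fell (median 1.08). Mbp (myelin basic protein) had values of 6.37, 6.29 and 6.43 at P15 and 4.91, 5.08 and 4.87 at E18.5, a rise of 1.41 ± 0.07. Mobp, a protein of central myelin, had values of 5.61, 5.27 and 5.25 at P15 and 2.99, 2.77 and 3.16 at E18.5, a rise of 2.40 ± 0.17. Ugt8a and Cnp rose by 1.50 ± 0.11 and 1.08 ± 0.08. The fallen genes were Sox10, the transcription factor of myelinating glia (0.82 ± 0.11), and Cldn11, a claudin of central myelin and of ear epithelia (0.49 ± 0.09). In the pairs of fetal and adult subunits, neuronal genes of both stages were among those that rose: Grin2b and Grin2a, the fetal and adult NMDA receptor subunits, by 2.16 ± 0.19 and 1.79 ± 0.23, and the fetal glycine receptor subunit Glra2 by 2.61 ± 0.27, while the adult subunit Glra1 was not called (0.49 ± 0.25). The chloride exporter Slc12a5, which makes GABA inhibitory in mature neurons, rose by 2.56 ± 0.14, and the importer Slc12a2, which dark cells use too, by 0.23 ± 0.08. The fetal GABA receptor subunit Gabra3 rose by 0.81 ± 0.17.

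Blood cell genes of the marrow lineages rose. All 20 neutrophil granule genes rose, by 0.58 to 4.92 (median 2.99), and 19 rose without E18.5 arrays 2 and 3. Ngp, a neutrophil granule protein, had values of 7.77, 6.99 and 7.0 at P15 and 1.76, 3.12 and 2.11 at E18.5, a rise of 4.92 ± 0.31. S100a8, a calcium-binding protein of mature neutrophils, had values of 7.69, 7.10 and 6.99 at P15 and 3.01, 3.14 and 2.53 at E18.5, a rise of 4.37 ± 0.29. P15 array 1 was the highest of its age for both genes and for Ltf (lactoferrin, 3.90 ± 0.25) and S100a9 (3.57 ± 0.30). Prg2, an eosinophil granule protein, rose by 3.85 ± 0.32.

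Of 19 B lineage genes 15 rose and none fell (median 1.66). Cd79a, the signalling chain of the B cell receptor, had values of 5.26, 5.15 and 4.88 at P15 and 1.08, 1.33 and 1.99 at E18.5, a rise of 3.63 ± 0.25. Vpreb3 and Ms4a1 (CD20) rose by 2.66 ± 0.15 and 2.91 ± 0.21. Il7r, the receptor that lymphoid precursors need and one of the 10 rises with the smallest p, rose by 3.45 ± 0.15. Of 13 erythroid genes 9 rose and 1 fell (median 1.35). Rhag, a red cell membrane protein, had values of 5.03, 5.78 and 5.49 at P15 and 2.06, 2.11 and 1.78 at E18.5, a rise of 3.45 ± 0.27, and the fallen gene was the embryonic globin Hbb-y (1.09 ± 0.29). Of 11 macrophage genes 6 rose and 3 fell. Lyz2, Itgam and Mpeg1, which neutrophils and monocytes share, rose by 2.52 ± 0.18, 2.10 ± 0.22 and 1.91 ± 0.20, while Mrc1, Cd163 and Cx3cr1, genes of resident tissue macrophages, fell by 0.83 ± 0.12, 0.92 ± 0.13 and 0.40 ± 0.08. None of 7 complement genes was called (0.05 median). Of 9 genes for antigen presentation 8 rose, with Cd74 at 2.79 ± 0.32 and H2-Aa at 2.50 ± 0.26. With 6 interferon response genes added, 8 of 15 rose and 1 fell, but 5 rose and none fell without E18.5 array 2.

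Skeletal muscle genes set the Igf1 -/- change apart from the wild-type one. Of 31 measured, 24 fell and 5 rose in Igf1 -/- tissue (median -1.01), and 8 fell and 11 rose in wild type (median 0.14). The mean level of the list was 5.36 to 5.68 in P15 Igf1 -/- and 5.98 to 6.49 in E18.5 Igf1 -/- arrays, against 5.83 to 6.07 in P15 Igf1 +/+ and 5.39 to 5.79 in E18.5 Igf1 +/+ arrays, and the part that the amount of muscle in each dissection had in these results was not tested. The test of the difference (Igf1 -/- change minus Igf1 +/+ change) called 29 of all 19938 genes (0.145%), 26 lower (0.13%) and 3 higher (0.015%) in Igf1 -/-. Of the 26 lower ones 11 are on the muscle list: Actn3, Tnnc2, Tnni2, Mylpf, Atp2a1, Myl2, Ckm, Acta1, Casq1, Pygm and Eno3. The difference was below 0 for all 31 muscle genes, and for 8967 of all 19938 genes. It was also below 0 for 33 of 33 cell cycle genes, 13 of 13 erythroid genes, 18 of 20 oxidative phosphorylation genes and 16 of 17 adipocyte genes, with no called difference in these lists. This count rested on few arrays: without E18.5 Igf1 -/- array 2 it called 3 genes of the list, without arrays 2 and 3 none, although the difference was then still below 0 for 31 genes.

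Mylpf, a fast regulatory myosin light chain, had values of 5.28, 5.45 and 5.15 in P15 Igf1 -/- arrays and 6.68, 6.88 and 6.47 in E18.5 Igf1 -/- arrays. In Igf1 +/+ arrays it had 5.91, 5.86 and 5.95 at P15 and 5.56, 5.90 and 6.01 at E18.5. It fell by 1.39 ± 0.14 in Igf1 -/-, with a wild-type change of 0.09, and the difference was -1.47 ± 0.19 (adjusted p = 0.00789), called in 12 of 12 fits that left out 1 array. Actn3, the actinin of fast fibres, had values of 6.08, 6.03 and 5.44 at P15 and 6.21, 6.60 and 6.32 at E18.5 in Igf1 -/- arrays, and 6.73, 6.57 and 6.80 at P15 and 5.04, 5.55 and 5.46 at E18.5 in Igf1 +/+ arrays. It moved in opposite directions, by -0.53 ± 0.17 in Igf1 -/- and 1.35 ± 0.17 in Igf1 +/+ (difference -1.88 ± 0.25, adjusted p = 0.00789, called in 12 of 12 such fits). Casq1, which stores calcium in the sarcoplasmic reticulum, changed by -0.79 ± 0.19 in Igf1 -/- and 0.93 in Igf1 +/+ (difference -1.71 ± 0.26, adjusted p = 0.0227, 9 of 12 fits). Ckm (muscle creatine kinase) differed by -1.60 ± 0.25 (adjusted p = 0.0238, 8 of 12) and Tnnc2 (fast troponin C) by -1.53 ± 0.22 (adjusted p = 0.0154, 11 of 12). Acta1 (skeletal actin) differed by -1.26 ± 0.23 (adjusted p = 0.0385, 2 of 12). Ampd1 and Yipf7, muscle-expressed genes that are not on the list, differed by -2.04 ± 0.30 and -1.46 ± 0.19, called in 8 and 12 of 12 fits.

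**Figure D4:**
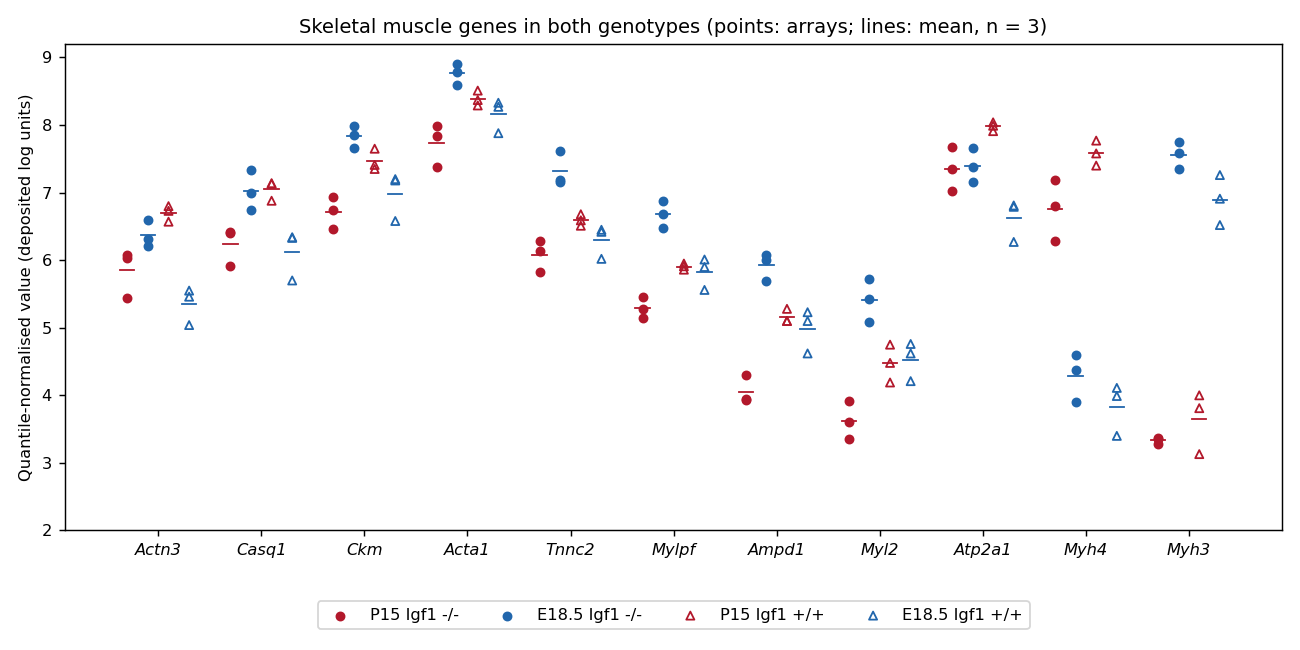
Quantile-normalised values in deposited log units of 11 muscle genes in P15 and E18.5 Igf1 -/- arrays (filled circles) and P15 and E18.5 Igf1 +/+ arrays (open triangles), with group means. Mylpf, Ampd1 and Myl2 lie lower at P15 than at E18.5 in Igf1 -/- arrays while their Igf1 +/+ arrays lie at like levels at both ages, Myh4 is higher and Myh3 lower at P15 in both genotypes.

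Fetal muscle isoforms fell in Igf1 -/- tissue, and the adult ones were divided. Myh3, the embryonic myosin heavy chain, had values of 3.37, 3.35 and 3.28 at P15 and 7.58, 7.75 and 7.35 at E18.5, a fall of 4.22 ± 0.21 (adjusted p = 1.08e-09), next to a wild-type change of -3.25. Myh8, the perinatal heavy chain, had values of 4.67, 4.53 and 4.49 at P15 and 8.28, 8.42 and 8.13 at E18.5, a fall of 3.71 ± 0.18. Atp1b4, a muscle membrane protein of late fetal life, fell by 3.68 ± 0.23, the fetal acetylcholine receptor subunit Chrng by 1.63 ± 0.10, cardiac actin Actc1 by 2.36 ± 0.31 and cardiac troponin Tnnt2 by 2.23 ± 0.13. Of the adult heavy chains, Myh4 (the fastest) had values of 6.80, 7.19 and 6.28 at P15 and 4.38, 4.60 and 3.90 at E18.5, a rise of 2.46 ± 0.24, and Myh1 rose by 1.31 ± 0.19. Myh2 was not called, with values of 6.52, 5.72 and 5.79 at P15 and 5.18, 6.08 and 4.92 at E18.5 (0.62 ± 0.28). The adult isoforms Acta1 and Tnnt3 (fast troponin T) fell, by 1.03 ± 0.16 and 1.01 ± 0.15, and the adult receptor subunit Chrne was not called (-0.09 ± 0.17). The wild-type changes of Myh4, Myh1 and Myh2 were 3.75, 2.09 and 1.82, without a called difference. All 5 myogenic regulators fell, among them Myog (1.57 ± 0.14), which starts muscle differentiation, and Myf5 (1.87 ± 0.17), a factor of muscle precursors. Slow troponin genes Tnnc1 and Tnni1 fell by 2.15 ± 0.15 and 1.97 ± 0.17.

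The promoters of muscle genes that differed between genotypes were searched for the E-box CAGCTG, the palindrome bound by myogenic factors, in windows of 250 bases before to 50 after each RefSeq gene start (GRCm38.p6). Being its own reverse complement, it reads alike on both strands. It was present in 8 of the 9 such muscle genes with a window in the table (88.9%), in 12 of 24 genes of the measured muscle list (50%) and in 4944 of 27025 genes overall (18.3%), a gene being counted once if any of its windows held it. A match is a description of the letters only. The windows of 4 of these genes are shown 5′ to 3′ on the gene's strand with the E-box in capitals.
Mylpf (GRCm38.p6 chr7:127211358-127211657, plus strand): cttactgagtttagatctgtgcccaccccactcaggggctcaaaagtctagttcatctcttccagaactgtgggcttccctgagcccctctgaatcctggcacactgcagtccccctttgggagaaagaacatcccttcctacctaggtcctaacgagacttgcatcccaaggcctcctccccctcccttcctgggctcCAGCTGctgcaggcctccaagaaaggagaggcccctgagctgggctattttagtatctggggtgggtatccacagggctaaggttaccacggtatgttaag
Casq1 (GRCm38.p6 chr1:172219846-172220145, minus strand): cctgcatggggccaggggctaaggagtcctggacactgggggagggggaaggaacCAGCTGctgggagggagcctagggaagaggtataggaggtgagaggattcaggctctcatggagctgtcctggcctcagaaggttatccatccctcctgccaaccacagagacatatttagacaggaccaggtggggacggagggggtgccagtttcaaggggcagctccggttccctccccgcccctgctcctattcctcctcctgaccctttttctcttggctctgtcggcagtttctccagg
Ckm (GRCm38.p6 chr7:19410844-19411143, plus strand): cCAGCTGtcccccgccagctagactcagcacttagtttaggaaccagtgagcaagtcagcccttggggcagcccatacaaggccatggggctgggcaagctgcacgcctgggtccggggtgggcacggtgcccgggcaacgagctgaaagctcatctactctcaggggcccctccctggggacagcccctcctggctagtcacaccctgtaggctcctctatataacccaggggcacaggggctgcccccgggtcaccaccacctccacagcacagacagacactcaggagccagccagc
Acta1 (GRCm38.p6 chr8:123894726-123895025, minus strand): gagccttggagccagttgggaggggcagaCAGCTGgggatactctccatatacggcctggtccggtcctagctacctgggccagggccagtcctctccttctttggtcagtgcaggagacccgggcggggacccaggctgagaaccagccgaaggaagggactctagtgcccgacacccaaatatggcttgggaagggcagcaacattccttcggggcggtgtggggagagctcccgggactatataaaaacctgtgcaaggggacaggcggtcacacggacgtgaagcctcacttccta

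**Figure D5:**
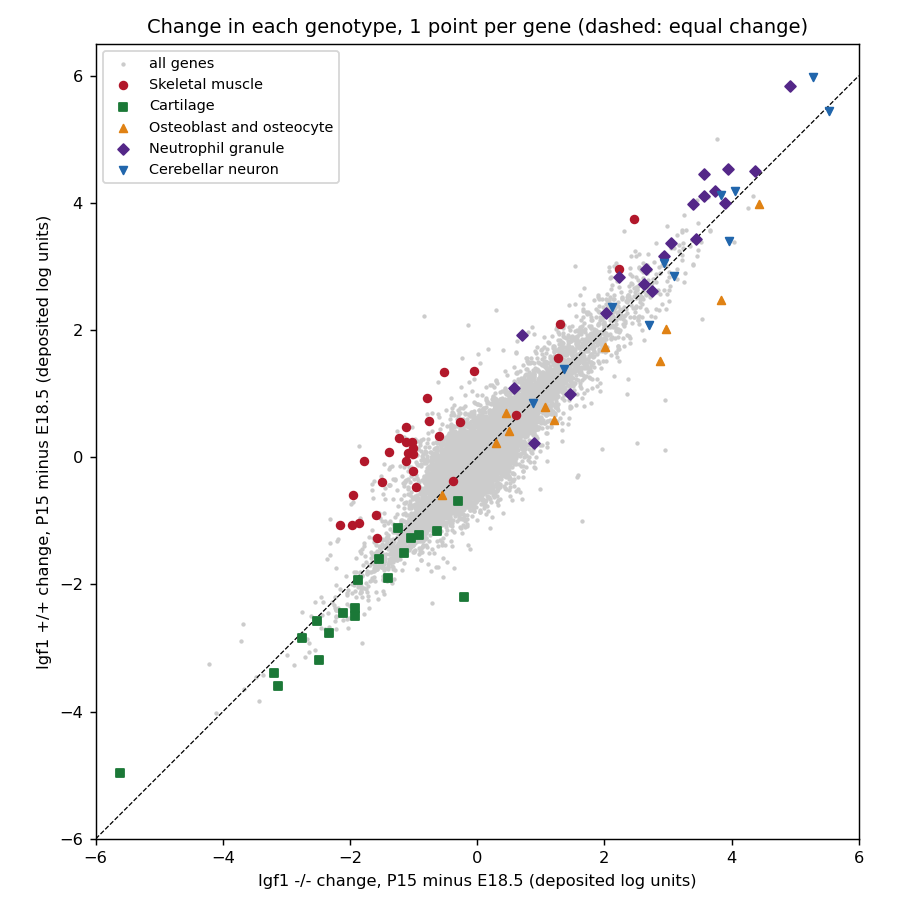
Change from E18.5 to P15 in Igf1 -/- arrays (horizontal) and in Igf1 +/+ arrays (vertical) for each of 19938 genes, in deposited log units, with members of 5 lists in colour and equal change as a dashed line. The muscle genes lie above the line, and of 11 osteoblast and osteocyte genes, the 4 that rose most (Mepe, Dmp1, Phex and Ibsp) lie below it.

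Few cell cycle genes were called. Of 33 measured genes for replication and mitosis none rose and 5 fell in Igf1 -/- tissue (15.2% against 20.5% of all genes), with a median of -0.27, and the wild-type median was 0.08 with 2 rises and 1 fall. The falls in Igf1 -/- were 4 without E18.5 array 2 and 2 without arrays 2 and 3. Gins2, a replication factor, had values of 4.51, 4.61 and 4.41 at P15 and 5.05, 5.20 and 5.13 at E18.5, a fall of 0.62 ± 0.12 (adjusted p = 0.000477). Cdk1, the kinase that drives mitosis, fell by 0.71 ± 0.18 and Tyms, which makes thymidylate, by 0.58 ± 0.15. No gene of the list passed the test of the difference between genotypes.

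Fat genes were high in 1 E18.5 array. Of 17 adipocyte genes 3 rose (17.6%) and 1 fell (5.88%) in Igf1 -/- tissue (median -0.08), against 20.3% and 20.5% of all genes. In wild type 10 rose (median 0.64). Ucp1, the uncoupling protein of brown fat, which was picked after its values were seen, had 2.96, 2.99 and 3.18 in P15 Igf1 -/- arrays and 2.79, 6.47 and 2.39 in E18.5 Igf1 -/- arrays, so array 2 alone was high. The list's mean level was 4.27, 4.17 and 4.17 in P15 Igf1 -/- arrays 1, 2 and 3 and 3.92, 4.99 and 3.71 in E18.5 Igf1 -/- arrays 1, 2 and 3. Without E18.5 array 2 the median was 0.33, with 5 rises and 1 fall.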

How the data were processed

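Total RNA of the vestibular organ was labelled and hybridised to 18 Affymetrix Mouse Gene 1.1 ST arrays, 1 per sample, in 6 groups of 3, per the labels' protocols. The authors deposited 1 log value per probe set, which fits a natural log or a log2 scale; the sources used here name neither the base nor the background correction or summarisation. The number of arrays limits the precision.

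The deposited values were quantile-normalised across all 18 arrays. Of 28853 probe sets, 21789 had 1 gene symbol, 1621 several and 5443 none in the platform annotation, and 21698 of those with 1 symbol matched RefSeq (GRCm38.p6). The probe set with the highest mean stood for each of 19938 genes. limma 3.58.1 (R 4.3.3) fitted the 6 group means over all 18 arrays (lmFit, eBayes; 12 residual degrees of freedom), and p-values were adjusted over all genes by Benjamini-Hochberg (threshold 0.05). Contrasts were P15 minus E18.5 in each genotype and the difference of these changes. The procedure was tested on simulated data. Within each genotype, arrays of equal replicate number did not deviate together between ages over all genes (r from -0.084 to 0.031), and arrays were treated as unpaired. Such a correlation cannot exclude a pairing that touches few genes.

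The members, the 35 gene lists and the tests were chosen with earlier results of these data known. The genes named were drawn from those a rule gave, not all of which are printed: Igf1; the 15 largest called rises and falls without overlapping arrays; in each list the 4 smallest p in each direction, and every member of the isoform, fetal growth, IGF and hair cell lists; the 10 smallest p in each direction and of the difference; and list members that were not called. Genes outside it were chosen after their values were seen. Alternatives were other scalings, filters, arrays left out, covariates and a replicate block.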

Additional observations from a re-analysis of the deposited data

Results flagged for a closer look

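The test of the difference between the maturation change in Igf1 -/- and that in Igf1 +/+ arrays passed the threshold for 29 genes (0.145% of all genes; limma, adjusted over all genes), and each is given here as Igf1 -/- change minus Igf1 +/+ change in log units. Muscle list genes differed by -1.88 (Actn3), -1.73 (Myl2), -1.71 (Casq1), -1.60 (Ckm), -1.53 (Tnnc2), -1.47 (Mylpf), -1.41 (Atp2a1), -1.37 (Tnni2), -1.33 (Pygm), -1.26 (Acta1) and -1.16 (Eno3). Other genes known from muscle differed by -2.04 (Ampd1), -1.67 (Klhl31), -1.52 (Apobec2), -1.46 (Yipf7), -1.36 (Ldb3), -1.36 (Myoz1), -1.22 (Lmod3), -1.21 (Cacng1), -0.96 (Myl4) and -0.89 (Popdc2). Outside muscle the values were -1.40 (Taar7e), -1.24 (Olfr1355), -1.06 (Gm867), -1.05 (Tuba4a) and -0.89 (A930016O22Rik), and 3 genes had a more positive change in Igf1 -/-, Erich6b (1.32), Sgms2 (0.90) and Pde1c (0.86). Actn3, Erich6b, Mylpf and Yipf7 were called in 12 of 12 fits that left out 1 array, and Tnnc2 in 11. Erich6b, Olfr1355, Taar7e and Gm867 had low values, in the lowest 20% of genes by their mean over all arrays. The percentiles of Erich6b and Olfr1355 among all genes were 6.8 and 2.9 in P15 Igf1 -/- and 4.8 and 7.2 in E18.5 Igf1 -/- arrays. Erich6b was not called in Igf1 -/- (0.20 ± 0.11), and its wild-type change was -1.11.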

How the results depend on the processing

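The 2 counts of the Igf1 -/- change (4038 higher, 4090 lower) ranged from 3471 to 4041 and from 3312 to 4048 when 1 Igf1 -/- array was left out, and the lower count was 973 with the values as deposited and 2643 without E18.5 Igf1 -/- arrays 2 and 3. Igf1 stayed lower at P15 and called in 16 of 16 alternatives. The test of the difference between genotypes depended most on the processing. Its higher count was 5 with array medians subtracted, 0 as deposited, 0 without E18.5 Igf1 -/- arrays 2 and 3 and 1 over the 12 arrays of both ages alone, and 1 to 7 with 1 array left out. Its lower count was 0 as deposited, 0 without those 2 arrays, 4 over the 12 arrays alone, 5 with a term for the 4 arrays apart on the third component, and 3 to 56 with 1 array left out. With the replicate number as a block it called 1 higher and 0 lower genes, and the labels do not say whether same-numbered arrays share more than a number. In limma's unadjusted test 1697 genes passed (8.51%). The term for 4 arrays and the fit over 12 arrays were chosen after seeing the data.

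For the list medians and gene changes below, the 2 other scalings were re-centred on the median change over all genes. This subtracted 0.29 from values as deposited and -0.03 with array medians subtracted, after which both scalings give the same values. Medians of lists that moved by more than the spread were -1.79 (fetal growth) and -0.39 (IGF system) under both other scalings after this re-centring. They were 1.27 (myelin), 1.75 (B lineage) and -0.41 (melanocyte) without E18.5 Igf1 -/- arrays 2 and 3. With the term for 4 arrays they were -0.15 (supporting cell) and 0.99 (myelin). With 1 array left out they ran from 1.46 to 1.74 (B lineage), -0.29 to -0.10 (dark cell), -0.15 to -0.09 (endothelial), -0.45 to -0.39 (IGF system), -0.32 to -0.17 (melanocyte) and 0.31 to 0.60 (thyroid hormone). Genes that were not called changed sign. Without E18.5 Igf1 -/- arrays 2 and 3 the changes were 0.33 (Col10a1), 0.15 (Irs4), -0.06 (Pou4f1), 0.26 (Ucp1), 0.25 (Chrne), 0.14 (Espn), 0.09 (Mir132), -0.06 (Mir137), 0.08 (Slc26a5) and 0.10 (Ush1g), and with the term for 4 arrays 0.13 (Col10a1), 0.13 (Irs4), 0.10 (Ucp1), 0.25 (Chrne), 0.14 (Espn), 0.01 (Mir132) and 0.06 (Slc26a5). Under both other scalings, after the re-centring, Mir137 was at -0.12 and Mir132 at 0.00. With 1 array left out they ran from -0.22 to 0.04 (Tmc2), -0.29 to 0.05 (Lin28b), -0.22 to 0.11 (Atp2a1), -0.51 to 0.35 (Col10a1), -0.19 to 0.19 (Irs4), -1.58 to 0.45 (Ucp1), -0.18 to 0.34 (Pou4f1), -0.26 to 0.01 (Chrne), -0.08 to 0.12 (Mir132), -0.03 to 0.15 (Mir137), -0.10 to 0.06 (Mir181a-2), -0.70 to 0.23 (Myo3a) and -0.14 to 0.07 (Ush1g). The Igf1 -/- calls of Actn3, Htra1, Igfals, Igfbp7, Lhx3, Mir138-1, Mir153, Mir181d, Mir376b, Mir411, Nox3, Slc12a2 and Tmc1 were lost when 1 or another array was left out (Tmc1 without E18.5 array 2). The cause of these shifts was not tested. Signal over background was not analysed here.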

Other observations

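Of 13 clock genes 9 rose and none fell in Igf1 -/- tissue (69.2%, against 20.3% of all genes), and of 5 glucocorticoid targets 1 rose and 1 fell. Together the 18 genes gave 10 rises and 1 fall (median 0.29), and 6 rises and 1 fall without E18.5 arrays 2 and 3. Nr1d1 and Nr1d2, repressors in the clock, rose by 1.45 ± 0.21 and 0.98 ± 0.12, their target Arntl by 0.95 ± 0.11 and the kinase Sgk1 by 1.12 ± 0.11, and Fkbp5 fell by 0.68 ± 0.09. Of 11 thyroid hormone genes 5 rose and 2 fell (median 0.51), and 5 and 1 without E18.5 arrays 2 and 3. The transporter Slco1c1 rose by 1.99 ± 0.10 and the hormone-responsive factor Klf9 by 1.25 ± 0.09, and the hormone-binding protein Crym fell by 1.88 ± 0.14. Metallothioneins Mt2 and Mt1 rose by 1.75 ± 0.17 and 1.19 ± 0.15, and Nqo1, a quinone reductase, fell by 1.10 ± 0.15. They were among 6 rises and 1 fall of 14 antioxidant genes (42.9% and 7.14%, median 0.19). For the thyroid hormone list with all arrays the shares were 45.5% and 18.2%, against 20.3% and 20.5% of all genes.

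Of 11 ribosomal protein genes 10 fell and none rose (median -0.47), among them Rplp0 (0.76 ± 0.13), and without E18.5 arrays 2 and 3 the count was 5. Of 20 oxidative phosphorylation genes 8 rose and 1 fell (median 0.19), with 11 and 1 without E18.5 array 2, 4 and 0 without arrays 2 and 3, and 16 rises in wild type. The pigment genes Tyrp1, Pmel and Oca2 fell by 1.12 ± 0.20, 1.06 ± 0.12 and 0.90 ± 0.15, while Kit rose by 0.90 ± 0.13. Of 12 endothelial genes 1 rose (8.33%) and 3 fell (25%), and of 20 sterol and fatty acid genes 2 rose (10%) and 4 fell (20%), against 20.3% and 20.5% of all genes. Without E18.5 arrays 2 and 3 these lists gave 1 rise and 1 fall and 1 rise and 3 falls. Of 11 immediate early genes 4 rose and 1 fell, but 2 rose and none fell without E18.5 array 2, and 1 rose without arrays 2 and 3. Of 11 immature neuron genes 5 rose and 1 fell, and 5 and 0 without arrays 2 and 3. Of 20 secretory and ciliated epithelium genes 4 rose (20%, against 20.3% of all genes). Reg3g, an antimicrobial lectin, rose by 2.94 ± 0.45 beside a wild-type change of 0.90, without a called difference between genotypes. With all arrays, rises and falls made up 40% and 5% of oxidative phosphorylation genes, 36.4% and 9.09% of immediate early genes and 45.5% and 9.09% of immature neuron genes.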
